A study of Mus musculus with 13 samples.

Results

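Interferon-induced genes are the genes that cells switch on when an interferon binds its receptor. The set described here holds 45 such genes, chosen by name from the 55421 gene identifiers of a count table of mouse arcuate nucleus, and all 45 were found. The 13 libraries came from mice aged 20 weeks and are taken here as 1 mouse each, although the labels do not say what the numbers in their titles mark. The KO mice carried Cre under Agrp together with floxed Klf4, so that the deletion is restricted to cells that have expressed Agrp, and the controls were their littermates. They ate regular chow throughout, or a high-fat diet (HFD) for the last 10 weeks. The groups were KO on HFD (KO_HFD, n = 3), controls on HFD (Control_HFD, n = 4), KO on chow (KO_Chow, n = 3) and controls on chow (Control_Chow, n = 3). The sources used here do not give the strain, or whether the controls carried Cre or the floxed allele. The arcuate nucleus lies at the base of the hypothalamus and holds the AgRP neurons, which drive feeding, among many other neurons, glia and vessels, so the libraries measure a whole tissue in which the deleted cells are a part. Fewer cells of a type and less RNA per cell cannot be told apart in such samples.

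Type I interferons signal through the receptor chains Ifnar1 and Ifnar2 and the kinases Jak1 and Tyk2, which activate transcription factors of the STAT family such as Stat2. The complex ISGF3, of which Stat2 and Irf9 are parts, binds a DNA motif called the interferon-stimulated response element. Interferon gamma uses Ifngr1 and Ifngr2 and acts mainly through another motif, the GAS element. The induced genes encode sensors of foreign RNA, enzymes that degrade RNA or stop translation, proteins that trap viruses, GTPases that attack membrane compartments, and the pathway's own transcription factors and inhibitors. In the brain, microglia, astrocytes, neurons and vessel cells can all respond to interferon, and many of these genes are also expressed at a low level without infection.

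Between 34.7 and 68.2 M counts were assigned to genes in a library, so that 1 count equals 0.0147 to 0.0288 CPM (counts per M assigned counts). All 45 genes had a read in every library, the lowest count being 4, and all 45 passed the expression filter of the test. Markers of arcuate and hypothalamic neurons were present, with all 18 listed at a mean of at least 1 CPM. Klf4 did not separate the genotypes, at 2.14 to 5.95 CPM in KO and 1.58 to 5.61 CPM in control libraries. Hsd11b2, a neighbour of Agrp, was at 60.7 to 68.5 CPM in the 6 KO libraries and at 0.348 to 1.55 CPM in 6 control libraries, while the library labelled Control_HFD replicate 3 had 63.6 CPM. The library labelled Control_Chow replicate 3 has the sex letter F but had 0.674 CPM of Xist, and by its reads it was male, so that no chow control was female by reads. In the titles, KO_HFD replicate 2 shares a number with the library labelled Control_HFD replicate 3, and Control_HFD replicates 1 and 2 share another, with different suffixes, for a reason that the sources used here do not state. The numbers of chow and HFD mice fall in different series, so diet and any batch that follows them cannot be told apart. Gene coordinates are those of GENCODE M21 on GRCm38, the assembly of mm10. Both doubted libraries are kept in their labelled groups. The medians of the 6 comparisons, the sex term, the pathway lists and several marker lists are also given without them.

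Promoters of the set were searched for the letters that ISGF3 and related factors are known to bind. RefSeq promoter windows (GRCm38.p6, 250 bases before to 50 bases after the start) were found for 34 of the 45 genes. The motif GAAANNGAAA, read on either strand, was present in 19 of these 34 genes (55.9%), against 3.99% of all 27025 genes with a window. Its matches may overlap each other. The GAS-like motif TTCNNNGAA was present in 8 of 34 genes (23.5%), against 9.55% of all genes. The 19 genes were Isg15, Ifit1, Ifit3, Ifit3b, Oas1a, Oas3, Eif2ak2, Ddx58, Ifih1, Ifitm3, Bst2, Rsad2, Stat2, Gbp2, Gbp3, Gbp7, Igtp, Irgm1 and Trim30a. No window was found for Rtp4, Mx1, Mx2, Oas2, Zbp1, Ifi27, Parp9, Parp14, Dhx58, Usp18 and Iigp1. A match is a run of letters and not a measured binding site. The stretches below were chosen as the parts of 8 promoters, from several families of the set, that hold the motif. Each is written on the strand of its gene, with every match to GAAANNGAAA or its reverse complement in capitals.
Isg15 (GRCm38.p6 chr4:156200860-156200911, minus strand): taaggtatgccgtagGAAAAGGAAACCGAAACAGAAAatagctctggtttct
Ifit1 (GRCm38.p6 chr19:34640770-34640828, plus strand): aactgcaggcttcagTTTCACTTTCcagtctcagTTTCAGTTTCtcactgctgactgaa
Ifit3 (GRCm38.p6 chr19:34583358-34583431, plus strand): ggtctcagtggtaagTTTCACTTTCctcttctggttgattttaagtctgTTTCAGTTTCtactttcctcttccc
Oas1a (GRCm38.p6 chr5:120907526-120907560, minus strand): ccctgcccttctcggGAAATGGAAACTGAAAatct
Gbp2 (GRCm38.p6 chr3:142620589-142620628, plus strand): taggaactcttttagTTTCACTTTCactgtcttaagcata
Irgm1 (GRCm38.p6 chr11:48871421-48871465, minus strand): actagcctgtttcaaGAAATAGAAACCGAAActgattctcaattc
Rsad2 (GRCm38.p6 chr12:26456548-26456587, minus strand): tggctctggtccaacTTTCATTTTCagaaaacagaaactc
Bst2 (GRCm38.p6 chr8:71537572-71537617, minus strand): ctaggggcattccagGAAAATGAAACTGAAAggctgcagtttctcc
In Isg15 3 matches overlap in a single run that ends 57 bases before the start. Oas1a, Irgm1 and Bst2 have a like arrangement of 2 overlapping matches. Ifit1 and Ifit3 each have 2 separate matches on the other strand, and Gbp2 and Rsad2 have 1 each.

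The level of the set differed widely both between mice of a group and between groups. For each gene with a mean of at least 1 CPM (41 of 45; Oasl1, Oas3, Mx1 and Zbp1 were lower), log2(CPM + 1) in a library was taken relative to the median of that gene over the 13 libraries. The median of these deviations over the 41 genes was -0.01, 0.85 and 0.93 in KO_HFD replicates 1, 2 and 3. It was -0.59, 0.70, 0.00 and 0.38 in the libraries labelled Control_HFD replicates 1 to 4. On chow it was -0.42, 0.00 and 0.47 in KO replicates 1 to 3, and -0.18, -0.50 and -0.71 in control replicates 1 to 3. The group means were 0.59 ± 0.52 (SD, n = 3) in KO_HFD, 0.12 ± 0.56 (n = 4) in Control_HFD, 0.02 ± 0.44 (n = 3) in KO_Chow and -0.46 ± 0.27 (n = 3) in Control_Chow. KO_HFD replicates 2 and 3 were thus the highest, followed by Control_HFD replicate 2 and KO_Chow replicate 3, and the library labelled Control_Chow replicate 3 was the lowest. The median over all other genes stayed between -0.02 and 0.03 in every library.

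**Figure D1:**
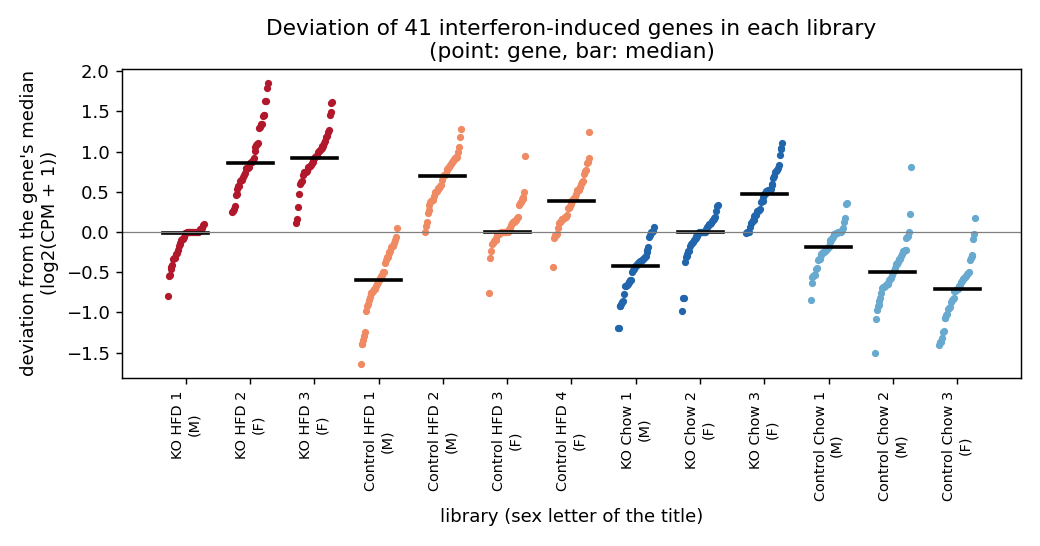
Each point is 1 of 41 interferon-induced genes in 1 library, placed by its log2(CPM + 1) minus that gene's median over the 13 libraries. The bar is the median over the genes and the letter is the sex letter of the title. The bars of KO HFD 2 and 3 sit at 0.85 and 0.93, that of Control HFD 2 at 0.70, and that of Control Chow 3 at -0.71.

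Nearly the whole set moved with the library. In KO_HFD replicates 2 and 3 all 41 genes were above their own median, and in Control_HFD replicate 2 40 of 41 were. In Control_HFD replicate 1 and in the library labelled Control_Chow replicate 3, 40 of 41 genes were below it. KO_HFD replicate 2 held the highest value of the 13 libraries for 20 genes and KO_HFD replicate 3 for 19, while 1 gene peaked in KO_Chow replicate 3 and 1, Ifit2, in Control_Chow replicate 2. The summed level of all 45 genes was 500, 1094 and 1031 CPM in KO_HFD and 383, 854, 593 and 700 CPM in Control_HFD. It was 425, 549 and 762 CPM in KO_Chow, and 465, 407 and 326 CPM in Control_Chow. Every group therefore spans a wide range, and only the chow controls lie wholly below 500 CPM.

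Within each group 1 mouse was the lowest for most of the genes. KO_HFD replicate 1 was the lowest of its group for 45 of 45 genes, Control_HFD replicate 1 for 40, KO_Chow replicate 1 for 39 and the library labelled Control_Chow replicate 3 for 30, with Control_Chow replicate 2 the lowest for 12. The highest of its group was KO_HFD replicate 2 for 24 genes and replicate 3 for 21, Control_HFD replicate 2 for 33 genes, KO_Chow replicate 3 for 42 and Control_Chow replicate 1 for 36. The median ratio of the highest to the lowest mouse of a group was 2.56 in KO_HFD, 3.29 in Control_HFD, 2.16 in KO_Chow and 1.65 in Control_Chow. By sex letter, the lowest mouse of each KO group was its only M, and in the HFD controls both the lowest and the highest mouse were M. The lowest chow control was the only F of its group by letter, although male by its reads.

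The genes also varied together once the group means were taken away. Over the 820 pairs among 41 genes, the Pearson correlation of the deviations from group means over the 13 libraries had a median of 0.83 and ran from 0.07 to 0.98, all above 0. Without removing group means, 37 of 41 genes correlated above 0.8 with the mean of the other genes, and 26 above 0.9. Helz2, a helicase and nuclear receptor co-activator, had the lowest value at 0.47, followed by Ifit2 at 0.64, Stat2 at 0.69 and Cmpk2 at 0.73. These are descriptions over 13 libraries that all genes share, so the pairs are not independent. Differences between the 4 groups, with 3 of the 12 degrees of freedom, accounted for 42.4% of the variation of the mean over the genes, and the rest lay between mice of a group.

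**Figure D2:**
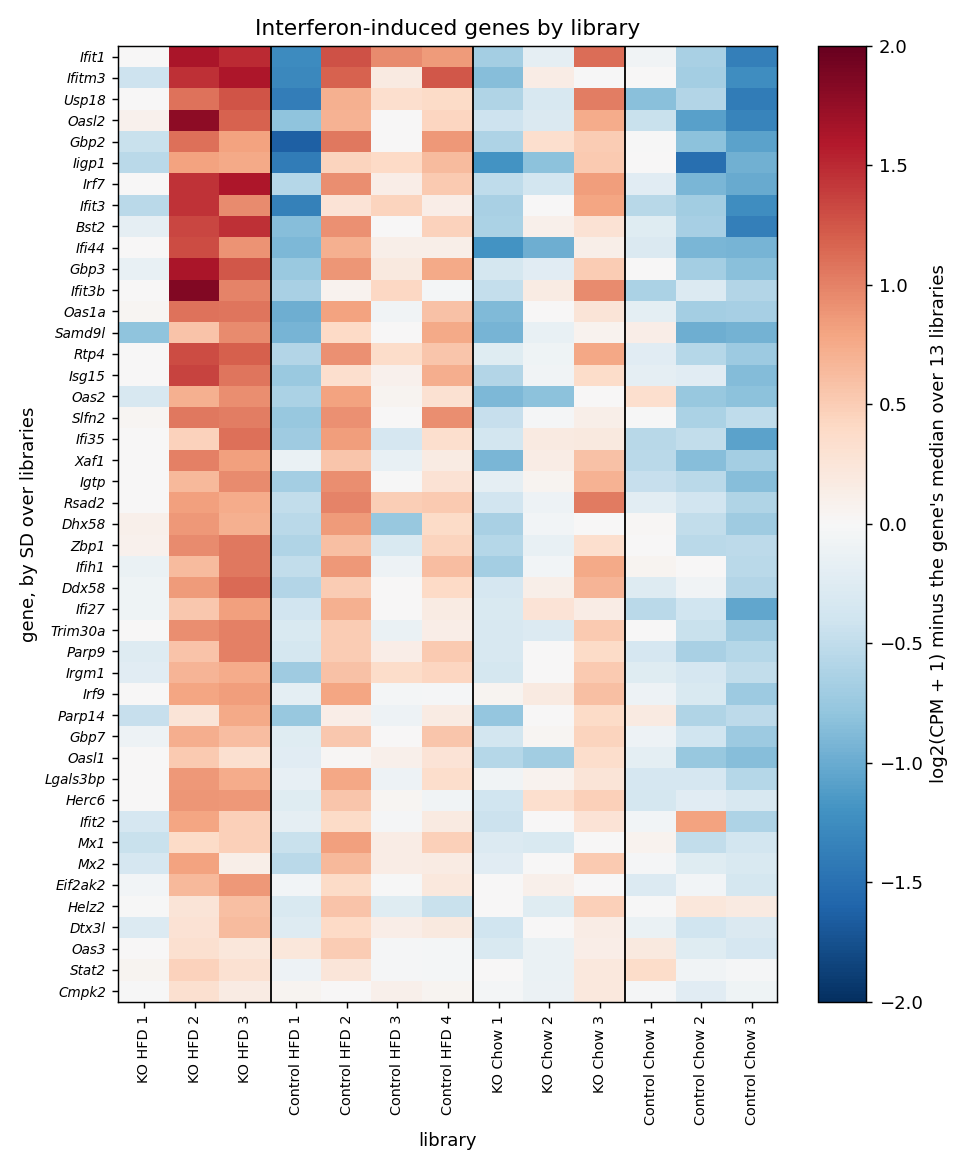
Rows are the 45 interferon-induced genes, ordered by their SD over libraries, and columns are the 13 libraries, with lines between the groups. Colour gives log2(CPM + 1) minus the gene's median. KO HFD 2 and 3 are red in nearly every row, Control HFD 1 and Control Chow 3 are mostly blue, and Ifit2 is the exception in Control Chow 2.

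Interferon transcripts themselves were almost undetectable. Of 16 genes for type I, II and III ligands, 11 had no read in any library, where a count of 0 allows up to 3 counts, or 0.0440 to 0.0864 CPM depending on the library. Ifnb1, encoding interferon beta, had 11 reads in total, all in Control_HFD replicate 4 (0.161 CPM). Ifng, encoding interferon gamma, had reads in 12 libraries and reached 0.286 CPM in Control_HFD replicate 2, with 0.0323, 0.0358 and 0.240 CPM in KO_HFD. Ifnb1 was thus counted in a mouse whose median deviation for the set was 0.38. Summed over the 16 genes, the ligands were at 0.240 CPM in KO_HFD replicate 3, 0.286 CPM in Control_HFD replicate 2 and 0.279 CPM in KO_Chow replicate 3, all high for the set. They were at 0.0358 CPM in KO_HFD replicate 2, also high, and at 0.294 CPM in KO_Chow replicate 2, where the set stood at 0.00. In the chow controls they were at 0.0288 to 0.108 CPM. These are few reads, and their part in the level of the set was not tested. Only Ifng was high enough to be tested, and its log2 difference between KO and control on chow was 1.27 ± 1.22 (SE, edgeR adjusted p = 0.692).

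The receptors were well expressed. Ifnar1 was at 36.8 to 52.6 CPM, Ifnar2 at 28.4 to 39.5 CPM, Ifngr1 at 23.9 to 53.7 CPM and Ifngr2 at 41.0 to 57.1 CPM over the 13 libraries. The lambda receptor chain Ifnlr1 was at 0.320 to 1.24 CPM. None of the 6 receptor genes passed the test in any of the 6 comparisons, which set KO beside control on HFD and on chow, average and subtract these differences (the mean and the interaction), and set HFD beside chow within each genotype. The smallest unadjusted p values among receptors were those of Ifnlr1 and Il10rb for diet, at 0.93 ± 0.44 in KO (edgeR adjusted p = 0.984) and 0.51 ± 0.26 in controls (edgeR adjusted p = 0.643).

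Among the pathway's transcription factors, Irf7 and Irf9 followed the set and Stat2 varied little. Irf7 (ENSMUSG00000025498.15, chromosome 7, 141262706 to 141266481, minus strand), the factor that amplifies interferon alpha production, measured 6.47, 19.4 and 21.9 CPM in KO on HFD, 4.03, 13.3, 7.22 and 9.72 CPM in HFD controls, 4.28, 4.78 and 12.3 CPM in KO on chow, and 5.36, 2.96 and 2.695 CPM in chow controls. Irf9 (ENSMUSG00000002325.15, chromosome 14, 55603571 to 55610030, plus strand), the DNA-binding part of ISGF3, measured 23.1, 40.6 and 42.1 CPM in KO on HFD, 20.1, 40.6, 22.4 and 22.7 CPM in HFD controls, 24.2, 26.4 and 35.6 CPM in KO on chow, and 21.4, 18.6 and 13.5 CPM in chow controls. Both KO_HFD replicates 2 and 3 exceeded every control for Irf7, but KO_HFD replicate 1 lay among the controls, and for Irf9 Control_HFD replicate 2, at 40.6 CPM, was close to the highest KO. Stat2 (ENSMUSG00000040033.16, chromosome 10, 128270559 to 128292849, plus strand) measured 28.9, 38.6 and 34.8 CPM in KO on HFD, 25.9, 33.04, 27.3 and 27.2 CPM in HFD controls, 27.9, 25.3 and 32.4 CPM in KO on chow, and 36.2, 26.6 and 27.5 CPM in chow controls. Its highest to lowest ratio over all libraries was 1.53, against 8.11 for Irf7. Exons of Irf7 overlap Phrf1 on the opposite strand and those of Irf9 share sequence positions with Rnf31. Since the strand setting of the counting is not given, part of these reads could belong to the neighbours.

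The tagging system was carried by the same libraries. Isg15 (ENSMUSG00000035692.7), a ubiquitin-like protein that is attached to other proteins, measured 2.06, 6.79 and 5.43 CPM in KO on HFD, 0.828, 2.86, 2.24 and 4.04 CPM in HFD controls, 1.03, 1.92 and 2.96 CPM in KO on chow, and 1.699, 1.61 and 0.674 CPM in chow controls. Usp18 (ENSMUSG00000030107.10, chromosome 6, 121245906 to 121270917, plus strand), the protease that removes this tag and also blocks signalling at the receptor, measured 8.63, 19.4 and 22.1 CPM in KO on HFD, 2.68, 14.8, 11.1 and 11.6 CPM in HFD controls, 5.37, 6.75 and 18.6 CPM in KO on chow, and 4.38, 5.401 and 2.64 CPM in chow controls. Herc6 (ENSMUSG00000029798.11, chromosome 6, 57581000 to 57664632, plus strand), the main ligase for the tag in mice, measured 9.02, 17.6 and 17.3 CPM in KO on HFD, 7.48, 13.7, 9.31 and 8.54 CPM in HFD controls, 6.63, 11.6 and 12.9 CPM in KO on chow, and 6.85, 7.61 and 7.01 CPM in chow controls. All 3 were highest in KO_HFD replicates 2 and 3, and in each the KO and control ranges overlapped on HFD. Reads of Usp18 cannot be told from those of Gm44148, which lies on the opposite strand.

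The enzymes that respond to foreign RNA ranged from well expressed to barely counted. Oasl2 (ENSMUSG00000029561.17, chromosome 5, 114896936 to 114912234, plus strand), an oligoadenylate synthetase with ubiquitin-like domains, measured 19.7, 66.2 and 42.95 CPM in KO on HFD, 10.1, 30.6, 18.4 and 25.1 CPM in HFD controls, 13.6, 14.8 and 31.7 CPM in KO on chow, and 13.2, 8.205 and 6.82 CPM in chow controls. Per length it was the most abundant of its family, at a mean of 3.64 RPKM (reads per kilobase and per M counts), and on chow all KO libraries lay above all control libraries. Eif2ak2 (ENSMUSG00000024079.4, chromosome 17, 78852564 to 78882573, minus strand), the kinase PKR that stops translation, measured 4.19, 7.47 and 8.83 CPM in KO on HFD, 4.18, 6.08, 4.401 and 5.26 CPM in HFD controls, 4.46, 4.78 and 4.41 CPM in KO on chow, and 3.46, 4.21 and 3.23 CPM in chow controls. KO_HFD replicates 2 and 3 exceeded all other libraries for this gene, while KO_HFD replicate 1 was about as low as the lowest HFD control. Oas1a ranged from 0.346 CPM in Control_HFD replicate 1 to 4.66 CPM in KO_HFD replicate 2, and its promoter holds 2 of the overlapping motif copies shown above. Oas2 ranged from 0.200 to 3.26 CPM, Oasl1, a repressor of Irf7 translation in mice, from 0.108 to 1.86 CPM, and Oas3 from 0.216 to 1.19 CPM. Oas3 peaked not in a KO but in Control_HFD replicate 2. Oas1a, Oas2 and Oas3 lie side by side (chromosome 5, 120730333 to 120907521), as do Oasl1 and Oasl2 (chromosome 5, 114896936 to 114937915).

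The cytosolic sensors of RNA and nucleic acids differed between libraries in the same way. Ddx58 (ENSMUSG00000040296.15, chromosome 4, 40203773 to 40239828, minus strand), which encodes RIG-I, measured 11.4, 22.7 and 27.8 CPM in KO on HFD, 7.71, 17.6, 12.1 and 16.4 CPM in HFD controls, 9.43, 13.2 and 19.9 CPM in KO on chow, and 9.93, 11.5 and 7.74 CPM in chow controls. Ifih1, which encodes MDA5, ranged from 2.69 CPM in KO_Chow replicate 1 to 11.2 CPM in KO_HFD replicate 3. Dhx58, which encodes the related helicase LGP2, ranged from 0.924 CPM in the library labelled Control_HFD replicate 3 to 4.94 CPM in KO_HFD replicate 2. It is the only sensor whose lowest value was in that library. Zbp1, a sensor of left-handed nucleic acids that can start cell death, ranged from 0.0903 CPM in Control_HFD replicate 1 to 2.44 CPM in KO_HFD replicate 3.

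The IFIT genes, whose proteins bind viral RNA and limit its translation, lie in a cluster of 4 (chromosome 19, 34550694 to 34650009). Ifit1 (ENSMUSG00000034459.8, chromosome 19, 34640871 to 34650009, plus strand) measured 14.2, 46.0 and 41.7 CPM in KO on HFD, 5.37, 35.7, 28.2 and 26.4 CPM in HFD controls, 8.51, 12.4 and 31.8 CPM in KO on chow, and 13.4, 8.71 and 4.85 CPM in chow controls. It had the largest SD of log2(CPM + 1) over the libraries of the 41 genes, and its promoter holds both motif copies shown above. Ifit3 (ENSMUSG00000074896.3, chromosome 19, 34583531 to 34588731, plus strand), a partner that stabilises Ifit1 complexes, measured 28.01, 113 and 80.4 CPM in KO on HFD, 15.6, 49.9, 56.1 and 45.1 CPM in HFD controls, 25.8, 41.1 and 72.1 CPM in KO on chow, and 27.6, 24.96 and 16.8 CPM in chow controls. Ifit3 in KO_HFD replicate 2 was more than any HFD control, but KO_HFD replicate 1 was below 3 of the 4. Ifit3b (ENSMUSG00000062488.9, chromosome 19, 34607970 to 34613401, plus strand), a near-identical copy of Ifit3, measured 16.6, 63.02 and 34.04 CPM in KO on HFD, 10.2, 17.6, 22.5 and 16.1 CPM in HFD controls, 11.7, 18.8 and 33.2 CPM in KO on chow, and 10.4, 13.6 and 10.7 CPM in chow controls, and how reads were divided between both copies is uncertain. Ifit2 stood apart from its neighbours. It ranged from 9.54 CPM in the library labelled Control_Chow replicate 3 to 27.4 CPM in Control_Chow replicate 2, a library that was below the median for 38 of 41 genes of the set, and KO_HFD replicate 2 had about as much.

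Membrane and virus-trapping proteins included some of the most variable and the least variable genes. Ifitm3 (ENSMUSG00000025492.6, chromosome 7, 141009586 to 141010770, minus strand), which blocks fusion of viruses with endosomes, measured 11.8, 45.5 and 50.9 CPM in KO on HFD, 5.92, 37.7, 18.2 and 39.3 CPM in HFD controls, 8.401, 17.7 and 15.8 CPM in KO on chow, and 15.98, 9.61 and 6.199 CPM in chow controls. Bst2 (ENSMUSG00000046718.8, chromosome 8, 71534255 to 71537456, minus strand), the tetherin that holds budding viruses at the cell surface, measured 4.87, 15.8 and 17.2 CPM in KO on HFD, 2.69, 11.4, 5.63 and 8.18 CPM in HFD controls, 3.29, 6.11 and 7.096 CPM in KO on chow, and 4.58, 3.195 and 1.56 CPM in chow controls. Both were high in KO_HFD replicates 2 and 3 and in Control_HFD replicates 2 and 4, and low in Control_HFD replicate 1. Rsad2, the antiviral enzyme viperin, ranged from 2.05 CPM to 8.56 CPM and peaked in KO_Chow replicate 3. Its neighbour Cmpk2 (both within chromosome 12, 26442746 to 26479837), a mitochondrial nucleotide kinase, ranged only from 51.2 to 75.3 CPM, a ratio of 1.47 against 4.18 for Rsad2. The dynamin-like GTPases were low, at 0.0919 to 1.70 CPM for Mx1 and 0.346 to 2.42 CPM for Mx2.

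**Figure D3:**
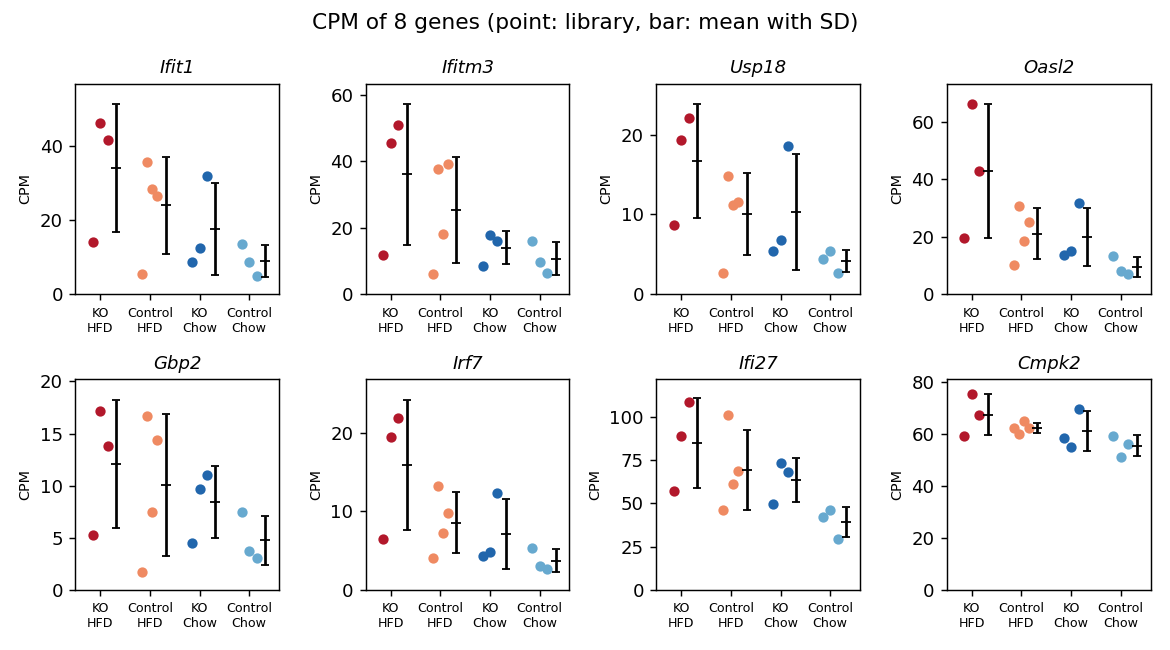
CPM of 8 interferon-induced genes, with 1 point per library and a bar for the mean and SD of each group (n = 3, 4, 3 and 3). In 7 of the panels the KO HFD group splits into 1 low and 2 high mice and the Control HFD group holds both low and high mice, while Cmpk2 stays between 51.2 and 75.3 CPM in every library.

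The GTPases that act on the membranes around pathogens are induced by interferon gamma as well as type I interferons. Gbp2 (ENSMUSG00000028270.12, chromosome 3, 142620602 to 142638008, plus strand) measured 5.24, 17.2 and 13.8 CPM in KO on HFD, 1.72, 16.6, 7.46 and 14.4 CPM in HFD controls, 4.49, 9.64 and 11.05 CPM in KO on chow, and 7.46, 3.77 and 3.05 CPM in chow controls. Its value in Control_HFD replicate 2 was far above that in replicate 1 of the same group. Igtp (ENSMUSG00000078853.8, chromosome 11, 58199556 to 58207591, plus strand), an immunity-related GTPase, measured 12.7, 20.4 and 25.2 CPM in KO on HFD, 7.54, 24.98, 12.5 and 15.8 CPM in HFD controls, 11.05, 13.2 and 21.1 CPM in KO on chow, and 8.898, 8.41 and 6.603 CPM in chow controls, and it shares an exon position with Irgm2. On chow all KO values of Igtp lay above all control values. Iigp1 (ENSMUSG00000054072.12), an effector of the same family, measured 2.19, 7.11 and 6.89 CPM in KO on HFD, 0.768, 5.34, 5.17 and 6.26 CPM in HFD controls, 1.03, 1.63 and 5.702 CPM in KO on chow, and 3.66, 0.644 and 1.401 CPM in chow controls. Gbp3 ranged from 4.64 to 30.2 CPM, Gbp7 from 5.90 to 17.9 CPM and Irgm1, a regulator of the effector GTPases, from 9.92 to 28.9 CPM. Gbp2, Gbp3 and Gbp7 are neighbours (chromosome 3, 142530342 to 142638008).

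The ADP-ribosyltransferase group was more even. Dtx3l (ENSMUSG00000049502.17, chromosome 16, 35926511 to 35939151, minus strand), a ubiquitin ligase that works as a complex with Parp9, measured 8.45, 12.9 and 16.8 CPM in KO on HFD, 8.55, 14.04, 11.5 and 12.03 CPM in HFD controls, 7.63, 10.4 and 11.6 CPM in KO on chow, and 9.44, 7.699 and 8.33 CPM in chow controls. Parp9 (ENSMUSG00000022906.15, chromosome 16, 35938470 to 35972605, plus strand) measured 5.84, 11.2 and 15.5 CPM in KO on HFD, 5.43, 10.6, 7.97 and 10.7 CPM in HFD controls, 5.57, 7.18 and 9.71 CPM in KO on chow, and 5.47, 4.23 and 4.501 CPM in chow controls. These genes overlap on opposite strands, so that their reads may be mixed. Parp14 ranged from 1.78 to 6.97 CPM and Helz2 from 0.938 to 2.98 CPM.

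The most abundant member per gene length was Ifi27, at a mean of 44.1 RPKM over all libraries. Ifitm3 followed with 32.1 RPKM, Ifit3 with 26.3 RPKM, Lgals3bp with 23.9 RPKM and Cmpk2 with 14.8 RPKM, and Oas3 was the least abundant with 0.0852 RPKM. Ifi27 (ENSMUSG00000064215.13, chromosome 12, 103434211 to 103440239, plus strand) measured 57.5, 88.96 and 109 CPM in KO on HFD, 46.4, 101, 61.04 and 68.5 CPM in HFD controls, 49.4, 73.6 and 68.1 CPM in KO on chow, and 41.9, 46.2 and 29.3 CPM in chow controls. Lgals3bp (ENSMUSG00000033880.11, chromosome 11, 118392751 to 118402092, minus strand), a secreted galectin-binding glycoprotein, measured 59.7, 110 and 101 CPM in KO on HFD, 53.04, 103, 55.3 and 76.6 CPM in HFD controls, 57.04, 62.9 and 71.8 CPM in KO on chow, and 47.2, 47.1 and 40.1 CPM in chow controls. For both genes every KO on chow exceeded every chow control, and every HFD control exceeded every chow control. Ifi35 (ENSMUSG00000010358.13, chromosome 11, 101448407 to 101458698, plus strand) measured 7.94, 11.4 and 18.3 CPM in KO on HFD, 4.47, 14.9, 6.12 and 10.2 CPM in HFD controls, 5.92, 9.102 and 9.28 CPM in KO on chow, and 5.097, 5.38 and 3.26 CPM in chow controls. Ifi44 (ENSMUSG00000028037.13, chromosome 3, 151730922 to 151749960, minus strand) measured 2.501, 7.67 and 5.55 CPM in KO on HFD, 0.888, 4.73, 2.82 and 2.799 CPM in HFD controls, 0.523, 0.774 and 2.81 CPM in KO on chow, and 1.87, 0.8503 and 0.836 CPM in chow controls. Xaf1 (ENSMUSG00000040483.15, chromosome 11, 72301629 to 72313733, plus strand), which binds the apoptosis inhibitor XIAP, measured 5.81, 12.7 and 10.97 CPM in KO on HFD, 5.19, 8.98, 5.13 and 6.64 CPM in HFD controls, 2.60, 6.54 and 9.199 CPM in KO on chow, and 3.69, 2.76 and 3.26 CPM in chow controls. Slfn2 (ENSMUSG00000072620.3, chromosome 11, 83065112 to 83070678, plus strand), a regulator of lymphocyte quiescence, measured 2.904, 6.92 and 6.75 CPM in KO on HFD, 1.23, 6.16, 2.795 and 6.21 CPM in HFD controls, 1.77, 2.72 and 3.12 CPM in KO on chow, and 2.76, 1.45 and 1.67 CPM in chow controls. In each of these 4 genes the highest value was in KO_HFD replicate 2 or 3. Rtp4 ranged from 3.56 to 17.6 CPM, Trim30a, which restrains inflammatory signalling in mice, from 1.46 to 7.09 CPM, and Samd9l from 6.32 to 26.8 CPM.

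KO and control mice on HFD were compared to ask how the deletion affects gene expression under that diet. Most of the 45 genes were higher in KO, but 0 passed the test. The median log2 fold change was 0.32, with 43 genes higher and 2 lower (95.6% higher, against 49% of the 23622 genes tested), and the median over all genes was -0.003. EdgeR called 0 of 45 genes at an adjusted p under 0.05, as it called 0% of all genes, and DESeq2 and voom also called 0 of the 45 and 0% of all genes. At an unadjusted p under 0.05, edgeR had 1 gene higher (2.22%, against 0.758% of all genes) and 0 lower (against 0.906%), DESeq2 had 1 (1.68% of all genes in either direction) and voom 2 (1.98%). That gene was Ifit3b, at 0.98 ± 0.37 (SE, edgeR adjusted p = 1). The next by p were Eif2ak2 at 0.41 ± 0.22, Stat2 at 0.26 ± 0.14, Herc6 at 0.48 ± 0.26 and Oasl2 at 0.90 ± 0.49, each with an edgeR adjusted p of 1. By role, the median was 0.59 in the tagging system, 0.54 in the sensors and 0.47 in the IFIT family, but 0.06 in the membrane group, where Mx1 at -0.50 ± 0.89 and Rsad2 at -0.004 ± 0.45 were the genes not higher. No gene had KO and control values that did not overlap, in either direction, whereas 1.6% of all genes had higher and 1.61% lower values without overlap. Single mice set the size of the median. It was 0.74 without KO_HFD replicate 1, 0.715 without Control_HFD replicate 2, 0.19 without the library labelled Control_HFD replicate 3 and 0.08 without both doubted libraries. Without Control_HFD replicate 2, 20 genes had an unadjusted p under 0.05, against 3.31% of all genes, and 0 were called.

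The same question on chow gave a like median but another order of genes. The median log2 fold change was 0.35, with 36 genes higher in KO and 9 lower (80% higher, against 49.6% of all genes), and the median over all genes was -0.002. At an adjusted p under 0.05 edgeR called 0 of 45 genes and 0% of all genes. DESeq2 called 0 of the 45 but 148 genes higher and 185 lower over all genes (1.41%), and voom called 0 of the 45 and 0% of all. At an unadjusted p under 0.05, edgeR had 0 genes, against 6.84% of all genes higher and 6.07% lower, DESeq2 had 3 (13.9% of all genes) and voom 0 (12.3%). The smallest p values were those of Irf9 at 0.68 ± 0.32 (edgeR adjusted p = 0.411), Ifi27 at 0.64 ± 0.32 (0.423), Igtp at 0.82 ± 0.42 (0.437), Lgals3bp at 0.46 ± 0.27 (0.505) and Ifi35 at 0.75 ± 0.46 (0.523). For 8 of 45 genes (17.8%) all KO values exceeded all control values, against 10.7% of all genes. These were Oasl2, Eif2ak2, Irf9, Igtp, Parp9, Ifi27, Ifi35 and Lgals3bp. No member had all KO values below all control values, against 8.81% of all genes. The genes not higher in KO were Oas2 at -0.81 ± 1.11, Ifit2 at -0.28 ± 0.42, Ifi44 at -0.14 ± 0.78, Samd9l at -0.14 ± 0.55, Stat2 at -0.10 ± 0.16, and Parp14, Helz2, Iigp1 and Mx1, which lay between -0.068 and -0.003. Sex was unevenly divided here, as 2 of 3 KO mice but 0 of 3 chow controls were female by reads. With sex taken from the reads the median was 0.095, with 29 genes higher and 16 lower, and with no sex term it was 0.53, with 41 higher and 4 lower. It was -0.03 without the library labelled Control_Chow replicate 3, 0.06 without KO_Chow replicate 3, 0.17 without Control_HFD replicate 2, 0.64 without KO_Chow replicate 1 and 0.66 without Control_Chow replicate 1. Without both doubted libraries it was -0.14, with 17 genes higher and 28 lower. The chow controls left without the library labelled Control_Chow replicate 3 were all M by letter and by reads. The KO difference on chow then depended on the sex term of the fit. The median of that term over the set was 0.43 with all libraries and 0.85 without both doubted libraries.

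Averaged over both diets, the KO difference had a median of 0.38, with 40 genes higher and 5 lower (88.9% higher, against 49.9% of all genes). EdgeR called 0 of 45 genes and 0% of all genes, and DESeq2 and voom called 0 of the 45, with 0.229% and 0% of all genes. At an unadjusted p under 0.05, 3 genes were higher by edgeR (6.67%, against 4.83% of all genes) and 0 lower (against 4.68%), and there were 9 by DESeq2 (10.4% of all genes in either direction) and 4 by voom (9.47%). The 3 were Ifit3b at 0.74 ± 0.29 (edgeR adjusted p = 0.494), Irf9 at 0.55 ± 0.23 (0.507) and Oasl2 at 0.88 ± 0.39 (0.522). The median was 0.14 without the library labelled Control_Chow replicate 3, 0.24 without KO_Chow replicate 3 and 0.58 without KO_HFD replicate 1, and -0.01 without both doubted libraries. With sex from the reads it was 0.185. With no sex term it was 0.51, and 16 genes had an unadjusted p under 0.05, against 12% of all genes. With 1 library left out 0 to 15 genes had an unadjusted p under 0.05, the 15 without KO_HFD replicate 1, against 8.41% of all genes. The interaction, which asks whether the KO difference depends on diet, had a median of 0.05, with 26 genes higher and 19 lower (57.8%, against 49.1% of all genes). EdgeR called 0 genes and 0% of all genes, DESeq2 and voom called 0 of the 45, with 0.0254% and 0% of all genes, and all 3 had 0 genes at an unadjusted p under 0.05, where edgeR had 2.61% of all genes higher and 2.49% lower. The smallest p was that of Stat2, at 0.36 ± 0.21 (edgeR adjusted p = 0.909). The median over the set ran from -0.30 without Control_Chow replicate 1 to 0.51 without Control_HFD replicate 2, so the sign depended on which mice were in the fit, and it was 0.26 without both doubted libraries.

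HFD and chow were compared in control mice to ask what the diet does without the deletion. The genes were mostly higher on HFD, with a median of 0.79, 42 higher and 3 lower (93.3% higher, against 51% of all genes), and a median over all genes of 0.006. Again 0 of 45 genes and 0% of all genes were called by edgeR, and DESeq2 and voom called 0 of the 45, with 0.195% and 0% of all genes. At an unadjusted p under 0.05, 5 genes were higher by edgeR (11.1%, against 4.16% of all genes) and 0 lower (against 3.91%), and there were 13 by DESeq2 (8.76% of all genes in either direction) and 4 by voom (7.51%). They were Ifi27 at 0.79 ± 0.28 (edgeR adjusted p = 0.591), Parp9 at 0.77 ± 0.28 (0.591), Xaf1 at 0.94 ± 0.36 (0.592), Lgals3bp at 0.65 ± 0.25 (0.592) and Igtp at 0.88 ± 0.38 (0.604). All HFD controls exceeded all chow controls for 4 genes (8.89%, against 4.88% of all genes), which were Xaf1, Ifi27, Lgals3bp and Cmpk2. None had the reverse, against 4.87% of all genes. By role the median was 1.00 in the membrane group, 0.95 in the RNA-activated enzymes, 0.83 in the GTPases and 0.21 in the ADP-ribosyltransferase group. The genes lower on HFD were Helz2 at -0.30 ± 0.40, Ifit2 at -0.11 ± 0.37 and Stat2 at -0.10 ± 0.14. Without Control_HFD replicate 2 the median was 0.19, with 33 genes higher and 12 lower, and at an unadjusted p under 0.05 there were 0 higher and 1 lower, against 4.56% of all genes. Without the library labelled Control_Chow replicate 3 it was 0.41, and without both doubted libraries 0.55. Without Control_HFD replicate 1 it was 0.955, and 22 genes had an unadjusted p under 0.05, against 10.6% of all genes, with 0 called. Sex by reads was uneven here too, as Control_HFD replicates 3 and 4 were female and no chow control was. With sex taken from the reads the median was 0.585, with 41 genes higher and 4 lower. In that fit 2 genes had an unadjusted p under 0.05, against 6.86% of all genes in either direction. With no sex term the median was 0.86, and 12 genes had an unadjusted p under 0.05, against 9.05%.

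In KO mice all 45 genes were higher on HFD than on chow (100%, against 49.7% of all genes), with a median of 0.69 and a median over all genes of -0.001. The test of edgeR called 0 of 45 genes and 0% of all genes, and DESeq2 and voom called 0 of the 45, with 0.0381% and 0% of all genes. At an unadjusted p under 0.05, 3 genes were higher by edgeR (6.67%, against 1.98% of all genes) and 0 lower (against 2.07%), and there were 12 by DESeq2 (4.61% of all genes in either direction) and 8 by voom (4.77%). They were Ifi44 at 1.96 ± 0.71, Eif2ak2 at 0.57 ± 0.23 and Isg15 at 1.25 ± 0.55, each with an edgeR adjusted p of 0.984. Ifit3b at 0.81 ± 0.39 and Slfn2 at 1.09 ± 0.53 followed. Only for Dhx58 did all KO_HFD values exceed all KO_Chow values (2.22%, against 3.6% of all genes), since for the other genes KO_HFD replicate 1 did not exceed the highest KO_Chow value. None had the reverse, against 4.97% of all genes. The median was 1.05 without KO_Chow replicate 3, 0.95 without KO_HFD replicate 1 0.465 without KO_Chow replicate 1 and 0.64 without both doubted libraries. Without KO_HFD replicate 1, 19 genes had an unadjusted p under 0.05, against 4.17% of all genes, and 0 were called. Without the 2 control groups in the fit, 28 genes had an unadjusted p under 0.05, against 6.93% of all genes, and the median was 0.63. The genotype and diet comparisons share libraries, so that Control_HFD replicate 1, the lowest HFD control, enters both KO against control on HFD and HFD against chow in controls.

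The sex term of the fit was also read as a comparison of F with M mice, which was added after the data had been seen. By the sex letter the median log2 fold change of F over M was 0.43 for the 45 genes, with 42 higher and 3 lower. Of all 23622 genes, 11633 were higher. By edgeR 0 of them and 0% of all genes were called, and 1 gene had an unadjusted p under 0.05, against 1.67% of all genes. With sex taken from Xist and Y-linked reads the median was 0.67, with 44 higher and 1 lower, beside 11544 of all 23622 genes higher. In that fit 11 genes had an unadjusted p under 0.05, against 3.78% of all genes. Again edgeR called 0 of the 45 genes (smallest adjusted p = 0.767), while 13 of all genes (0.055%) were called in either direction. By letter and without both doubted libraries the median was 0.85, with 44 higher and 1 lower, beside 12088 of all 24326 genes higher. There 14 of the 45 genes were higher at an unadjusted p under 0.05 by edgeR, against 1767 of all 24326. EdgeR called 0 of the 45, and 8 of all genes higher and 7 lower. Control_HFD replicate 2, an M library by letter and reads, was the third highest of the 13 for the set.

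**Figure D4:**
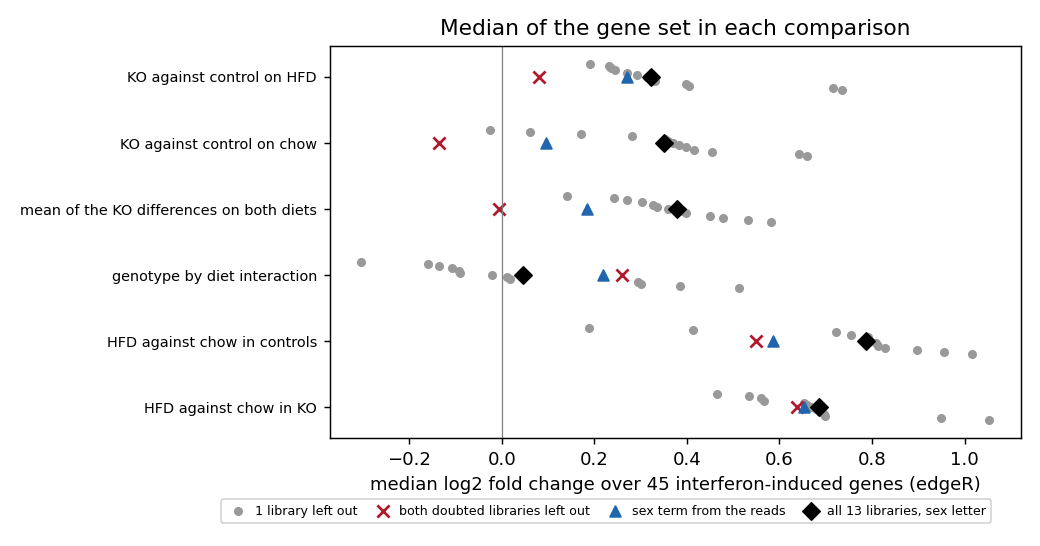
Median log2 fold change over the 45 genes in each of the 6 comparisons, by edgeR. Diamonds use all 13 libraries with the sex letter, triangles take sex from the reads, crosses leave out both doubted libraries, and grey points leave out 1 library each. In KO against control on chow the diamond is at 0.35 and the cross at -0.14, and in both diet comparisons every symbol lies above 0.

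Other genes of the pathway were read from lists from which the 45 were left out. Of 79 further interferon-induced genes tested, 65 were higher and 14 lower in KO on HFD, with a median of 0.24, and on chow 55 were higher and 24 lower, with a median of 0.31. For diet the medians were 0.58 in controls, with 71 higher and 8 lower, and 0.58 in KO, with 74 higher and 5 lower. Without both doubted libraries, where 81 were tested, the medians were 0.02 for KO on HFD and -0.06 for KO on chow, and 0.39 and 0.59 for diet in controls and in KO. EdgeR called 0 of them in any of the 6 comparisons. The smallest p values were those of Slfn9 at 1.23 ± 0.33 and Gbp8 at 1.60 ± 0.57 for the KO difference over both diets (edgeR adjusted p = 0.437 and 0.454), and of Phf11d at 1.43 ± 0.42 and Slfn8 at 1.47 ± 0.45 for diet in controls (0.563 each). Slfn9 and Slfn8 belong to the Schlafen family, as Slfn2 does, and Gbp8 to the guanylate-binding GTPases. Of 16 signalling genes, 13 were higher and 3 lower in KO on HFD, with a median of 0.09, and the median was 0.19 for KO on chow, 0.245 for diet in controls and 0.07 for diet in KO. Without both doubted libraries these 4 medians were 0.02, 0.05, 0.22 and 0.07. Stat4, which transmits interleukin and interferon signals in lymphocytes, was at 1.97 ± 0.55 for KO against control on chow (edgeR adjusted p = 0.264), at 0.554 to 0.774 CPM against 0.115 to 0.189 CPM. Stat3 was at 0.49 ± 0.18 in that comparison (0.314), its target Socs3, a feedback inhibitor, at 0.84 ± 0.28 over both diets (0.437), and the phosphatase Ptpn6 at 0.69 ± 0.27 for diet in controls (0.595). Of 22 genes for nucleic acid sensing, 16 were higher and 6 lower in KO on HFD, with a median of 0.07, and the median was 0.14 for KO on chow, 0.14 for diet in controls and 0.13 for diet in KO. Without both doubted libraries the 2 KO medians were 0.015 and -0.003, and those for diet 0.14 and 0.13. Traf3, an adaptor of interferon induction, was at -0.34 ± 0.09 (edgeR adjusted p = 0.263) and the RNA editing enzyme Adar at -0.29 ± 0.10 (0.291) for KO against control on chow. Tmem173, which encodes STING, was at 0.58 ± 0.20 (0.587) and the adaptor Myd88 at 0.48 ± 0.21 (0.603) for diet in controls. EdgeR called 0 genes of the ligand, receptor, signalling and sensing lists in any comparison.

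Markers of other cell types in the tissue were read beside the set. Microglial markers, 16 of 16 at a mean of at least 1 CPM, summed to 822 to 1108 CPM in KO_HFD, 732 to 1094 CPM in Control_HFD, 635 to 865 CPM in KO_Chow and 531 to 670 CPM in Control_Chow. Their median deviation was highest in KO_HFD replicate 3 (0.50) and Control_HFD replicate 2 (0.41), both high for the set, but it was 0.03 in KO_HFD replicate 2, where the set stood at 0.85. For diet in controls all 16 were higher on HFD, with a median log2 fold change of 0.51. In KO on chow 15 of 16 were higher, with a median of 0.35, the same as that of the set. Of these 15, 7 had an unadjusted p under 0.05 by edgeR, against 6.84% of all genes higher. Without both doubted libraries the microglial median was 0.25, with 14 of 16 higher, while that of the set was -0.14. Meningeal fibroblast markers, 10 of 10 at that level, summed to 379, 4205 and 3249 CPM in KO_HFD, 403, 4064, 1435 and 4721 CPM in Control_HFD, 216, 2544 and 562 CPM in KO_Chow, and 2922, 559 and 443 CPM in Control_Chow. In each of the 4 groups their sum was lowest in the mouse that was also lowest for the set. Mural markers, 8 of 8 at that level, had their lowest sums in the same mice. These were 118 CPM in KO_HFD replicate 1, 132 CPM in Control_HFD replicate 1, 100.5 CPM in KO_Chow replicate 1 and 106 CPM in Control_Chow replicate 3. Border-associated macrophage markers shared this except in Control_Chow, where replicate 2 was lowest. Endothelial and astrocyte markers were also lowest in KO_HFD replicate 1 and KO_Chow replicate 1, but not in Control_HFD replicate 1. Among HFD controls both were lowest in replicate 3, at 176 and 3168 CPM, against 234 and 3388 CPM in replicate 1. Among chow controls the endothelial sum was lowest in replicate 2 and the astrocyte sum in replicate 3. In Control_Chow the meningeal markers and the set were both highest in replicate 1. In KO_Chow the set was highest in replicate 3, with the meningeal markers at 562 CPM. With all 13 libraries, the meningeal markers and most of the set went opposite ways for genotype and the same way for diet. Control_Chow replicate 1 had 2922 CPM of these markers with the set at -0.18. All 10 markers were lower in KO on chow, with a median of -0.70, and 8 of 10 on HFD, with -0.32. For diet all 10 were higher on HFD in both genotypes, with medians of 0.54 in controls and 1.34 in KO. Without both doubted libraries the diet medians were 0.03 (6 of 10 higher) and 1.22 (10 of 10). The KO medians of the meningeal markers were then -1.85 on chow and -1.07 on HFD, beside -0.14 and 0.08 for the set. On chow both thus went the same way for genotype without these libraries. Oligodendrocyte markers were higher in KO for 12 of 12 genes on both diets, with medians of 0.455 on HFD and 0.47 on chow. Without both doubted libraries these medians were 0.08 (10 of 12 higher) and 0.19 (11 of 12). Tanycyte markers were higher in KO for 10 of 12 genes on HFD (median 0.34) and 11 of 12 on chow (median 1.04). Without both doubted libraries the tanycyte medians were 0.05 (7 of 12 higher) and 0.765 (10 of 12). Ependymal markers were higher for 10 of 10 genes in KO on chow (median 1.575) and lower for 8 of 10 in KO on HFD (median -0.22). Without both doubted libraries the ependymal medians were 1.04 on chow (10 of 10 higher) and -0.56 on HFD (9 of 10 lower). Arcuate and hypothalamic neuron markers were higher in KO for 13 of 18 genes on chow (median 0.85) and 12 of 18 on HFD (median 0.125). Without both doubted libraries these medians were 0.60 (13 of 18 higher) and 0.05 (10 of 18). For diet 11 of 18 were higher on HFD in controls (median 0.575) and 5 of 18 in KO (median -0.08). EdgeR called 0 genes of these lists. Border-associated macrophage markers, 5 of 8 at that level, summed to 13.9 to 37.7 CPM in KO_HFD, 10.0 to 36.3 CPM in Control_HFD, 7.20 to 24.1 CPM in KO_Chow and 9.12 to 23.1 CPM in Control_Chow. Lymphocyte markers were close to absent, with 13 of 15 below 1 CPM in every library, Cd3e and Cd8a among them. They summed to 9.97 to 14.7 CPM in KO_HFD, 10.2 to 14.3 CPM in Control_HFD, 10.0 to 13.1 CPM in KO_Chow and 6.34 to 8.18 CPM in Control_Chow. For diet 8 of 8 tested were higher on HFD in controls (median 0.83) and 7 of 8 in KO (median 0.52). Neutrophil and monocyte markers summed to 0.557 to 3.14 CPM. Anterior pituitary markers, 5 of 10 at that level, summed to 5.93 to 318 CPM in KO_HFD and 3.31 to 191 CPM in Control_HFD. On chow they summed to 6.67 to 39.2 CPM in KO and 7.23 to 10.4 CPM in controls. For diet 6 of 8 tested were higher on HFD in controls (median 3.27) and 7 of 8 in KO (median 3.52). Without both doubted libraries these medians were 2.23 (5 of 8 higher) and 3.63 (7 of 8). Their lowest sum in KO_HFD, 5.93 CPM, was in replicate 2, where the set stood at 0.85. The part of these cells in the differences of the set was not tested.

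**Figure D5:**
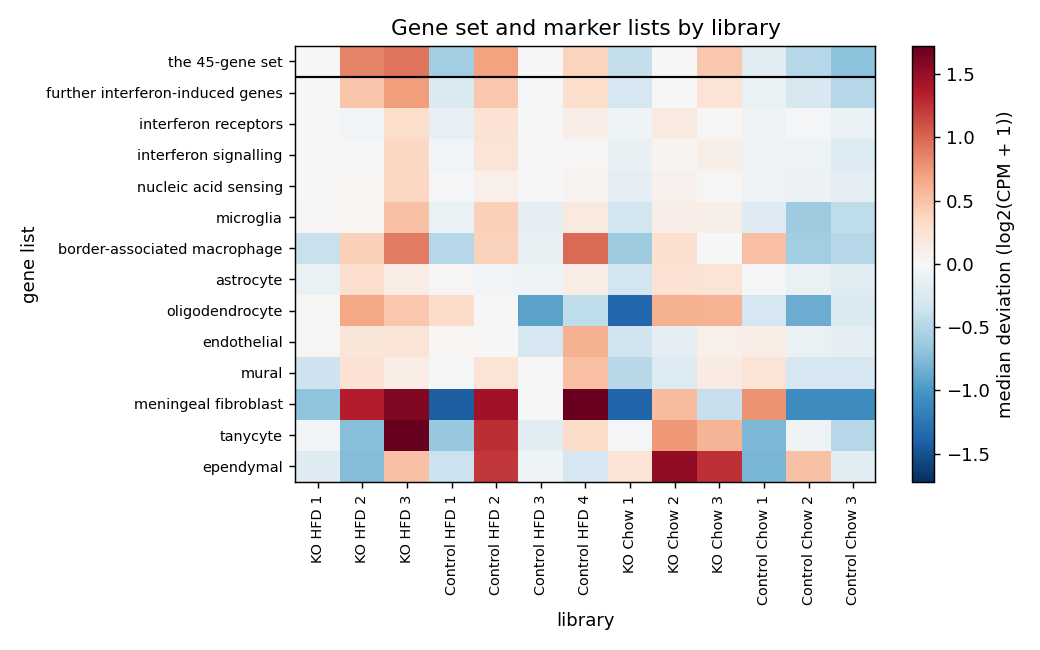
Median deviation from the gene's own median, in log2(CPM + 1), for the 45-gene set and 13 lists, with libraries in columns. The set and the further interferon-induced genes are both high in KO HFD 2 and 3. Meningeal fibroblast markers are at their group's lowest in the same mice as the set, KO HFD 1, Control HFD 1, KO Chow 1 and Control Chow 3. Mural and border-associated macrophage markers are so too, except that Control Chow 2 is the lowest chow control. For endothelial and astrocyte markers the lowest HFD control is Control HFD 3.

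Genes outside the set with the most similar pattern included other interferon-induced genes. Over the 13 libraries and 17684 other genes with a mean of at least 1 CPM, 8 of the 10 genes with the highest Pearson correlation of log2(CPM + 1) with the mean of the set are given here, at 0.945 to 0.963. Ddx60 (0.955), Gbp6 (0.953), Irgm2 (0.951) and Isg20 (0.949), which are 4 of the 8, belong to the list of further interferon-induced genes. Gm44148 (0.963) lies opposite Usp18, Gm43302 (0.959) shares exons with Gbp6, and Irgm2 shares 1 with Igtp, so these may count the same reads. The remaining 2 were Mfsd1 (0.952), a lysosomal transporter at 36.0 to 50.3 CPM, and Ecrg4 (0.945), a secreted peptide precursor at 0.452 to 10.8 CPM. The likeness is a description over libraries that differ in more than 1 way.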

How the data were processed

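RNA of arcuate nucleus was sequenced in 13 libraries after Trizol extraction and a Takara SMART-Seq Ultra Low Input library kit, per the labels. The deposited table holds, per gene and library, whole-number read counts and RPKM values made by the authors. The submitters' processing notes name STAR, STAR-Fusion, Subread, FastQC, edgeR and mm10, without versions. The annotation, the strand setting and the read filters were not stated there or in the labels. The deposited RPKM equal the counts per kilobase (length plus 1 base) and per M counts to within a relative difference of 3.2e-13, and were used only to compare levels between genes. Coordinates are from GENCODE M21 on the same assembly, which holds 54673 of the 55421 identifiers with the same version, all 54673 with the same start. Isg15 and Mx1 have another identifier version there.

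Groups were taken from the sample titles, and the replicate numbers, given in accession order, are only names. Each library is taken as 1 mouse, but 2 of the numbers in the titles stand in 2 titles each and what they mark is not given, so p-values measure the spread between libraries, which may be partly technical. No pair of libraries agreed within sampling noise (lowest chi-square per degree of freedom 14.96). CPM are counts divided by the column total. Deviations use log2(CPM + 1). The test was the quasi-likelihood F test of edgeR 4.0.16 under R 4.3.3 (voom from limma 3.58.1) with TMM, the default expression filter and robust dispersion, on 1 fit of all 13 libraries with 4 groups and the sex letter as an additive term, over 23622 genes. Residual degrees of freedom were 8, and p-values were adjusted by Benjamini-Hochberg over all genes with a threshold of 0.05. The test was also run on simulated counts, but the outcome is not given here and is not used as support. Alternatives were DESeq2 1.42.0, voom, RLE size factors, no filter, no sex term, sex from Xist and Y-linked reads, only the groups compared, each library left out, and both doubted libraries left out. In the sensitivity fits in which a group keeps 2 libraries, all groups share 1 estimate of the spread.

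The genes given by library are the 10 with the largest SD over libraries, those with the 5 smallest p in each genotype and each diet comparison, and the most abundant per length in each role. From the pathway lists up to 4 genes with the smallest p are named. Ifit2, Cmpk2 and other members are named to account for the whole set or because they go against it. The 45 genes, the lists and the tests were chosen with earlier results of these data known, so that no count over the set is independent evidence. Some genes of the lists are not reported here.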

Additional observations from a re-analysis of the deposited data

Results flagged for a closer look

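Of 41 genes examined in the 4 libraries labelled Control_HFD, 3 had a library far from the other 3, where chance gives about 1 in 20. The 41 genes vary together and are not independent, and no share over all genes is given. The count is therefore only a description of these libraries. The measure is the gap of the extreme library to its nearest neighbour divided by the range of the group, on log2(CPM + 1). It was 0.833 for Ifit1 and 0.885 for Iigp1, both because Control_HFD replicate 1 was low, at 5.37 and 0.768 CPM. It was 0.834 for Irf9, because Control_HFD replicate 2 was high, at 40.6 CPM. In the titles these 2 libraries share a number with different suffixes.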

How the results depend on the processing

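No gene of the set was called under any of the alternatives run, in any of the 6 comparisons. The medians over the set were less stable. Of 124 medians under an alternative, 11 had the other sign, 8 of them for the interaction, and 37 moved by over 1.5 times. For KO against control on chow the median was -0.135 without both doubted libraries, where 21 of 45 genes changed sign and the chow controls left were all M. On HFD 14 genes changed sign there, and for the mean of both diets 18. For HFD against chow in controls the median was 0.189 without Control_HFD replicate 2, where 9 genes changed sign. For HFD against chow in KO at most 1 gene did. For the 5 genes with the smallest p in each comparison, 619 of 620 values kept their direction and 1 did not, namely the interaction of Igtp, at 0.016 without Control_HFD replicate 2 and down to -0.766 without Control_HFD replicate 1. As these genes were picked by the main fit and the alternatives reuse most of its libraries, kept directions were likely beforehand. They are no evidence of stability. With 1 library left out, the median ran from 0.191 to 0.736 for KO against control on HFD, from -0.026 to 0.659 on chow, from 0.142 to 0.581 for their mean and from -0.304 to 0.513 for the interaction. It ran from 0.189 to 1.016 for HFD against chow in controls and from 0.465 to 1.053 in KO. The causes were not tested. No paired analysis was possible because the replicate numbers follow accession order and pair no mice. Groups of 3 or 4 mice with ratios of 1.65 to 3.29 between mice limit what can be called, and 4 of the 45 genes had a lowest count under 10.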
